A study of Mus musculus with 6 samples.

Results

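The genes described here are 36 genes of glycolysis and of the response to low oxygen, measured in group 2 innate lymphoid cells (ILC2s) from mouse lung. They were taken by name from a fixed list of glucose and lactate transporters, glycolytic enzymes and targets of the hypoxia-inducible factor HIF. All 36 were among the 17546 genes of the deposited table, and all 36 passed the filter on low counts that left 13325 genes for testing. The ILC2s were sorted from lungs of BALB/c mice given 3 i.n. injections of 1 µg recombinant mouse IL-33, an alarmin that activates these cells. Both groups were kept in IL-2 and IL-7, each at 10 ng/mL. The Yoda1 group (libraries 4, 5 and 6) received 10 µM Yoda1 for 24 h, and the DMSO group (libraries 1, 2 and 3) received DMSO for the same time. Yoda1 is a small molecule that opens the mechanically gated, calcium-permeable channel Piezo1, and DMSO is its solvent. The sample labels name the control DMSO, while the design text and the table name it PBS.

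Glycolysis breaks glucose down to pyruvate in the cytosol, and lactate dehydrogenase can turn the pyruvate into lactate, which leaves the cell with a proton through monocarboxylate transporters. HIF-1 is a transcription factor whose alpha subunit is marked for destruction by oxygen-dependent prolyl hydroxylases, and many glycolytic genes are among its known targets. Activated lymphocytes are known for high glycolytic gene expression, and proliferating cells draw on the pathway for building blocks.

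In the Yoda1 libraries, 5 of the 36 genes fell and none rose: Tpi1, Eno1, Ldha, Slc16a3 and Bnip3. These stand for an early and a late enzyme of the triose steps, the enzyme that makes lactate, a lactate exporter and a mitophagy receptor. The falls differed in size, with log2 fold changes of -1.21 for Slc16a3 and -1.13 for Bnip3, against -0.52 for Tpi1, -0.45 for Ldha and -0.24 for Eno1. Glucose uptake genes, hexokinases and Hif1a did not pass the test. The threshold was a Benjamini-Hochberg adjusted p under 0.05 in edgeR's quasi-likelihood test over all tested genes.

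The 5 genes are 13.9% of the members, while 0.923% of all tested genes fell by the same test and 0.57% rose. That background includes many genes with low counts and depends on the filter. With a filter of 10 CPM in 3 libraries, 7 of the 32 members left fell, against 3.4% of the 8518 genes left. At an unadjusted p under 0.05, 11 members were lower and 1 was higher, against 7.11% lower and 7.39% higher among all tested genes. Yoda1 and DMSO libraries did not overlap for 12 members that were lower and 1 that was higher, which is 33.3% of the members for the lower side. The same held for 12.0% of all tested genes on the lower side and 10.6% on the higher side. Of the members, 27 had a log2 fold change below 0 and 9 above 0, against 49.0% below and 51.0% above among all tested genes. The median log2 fold change was -0.17 over the members and 0.01 over all tested genes. DESeq2 put 7 members lower and 0 higher, where 3.53% of its genes were lower and 3.03% higher. Limma voom put 6 lower and 0 higher, where 1.34% of all tested genes were lower and 0.908% higher. The list was drawn up with earlier results of these data known, so its share is a description of these genes.

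**Figure D1:**
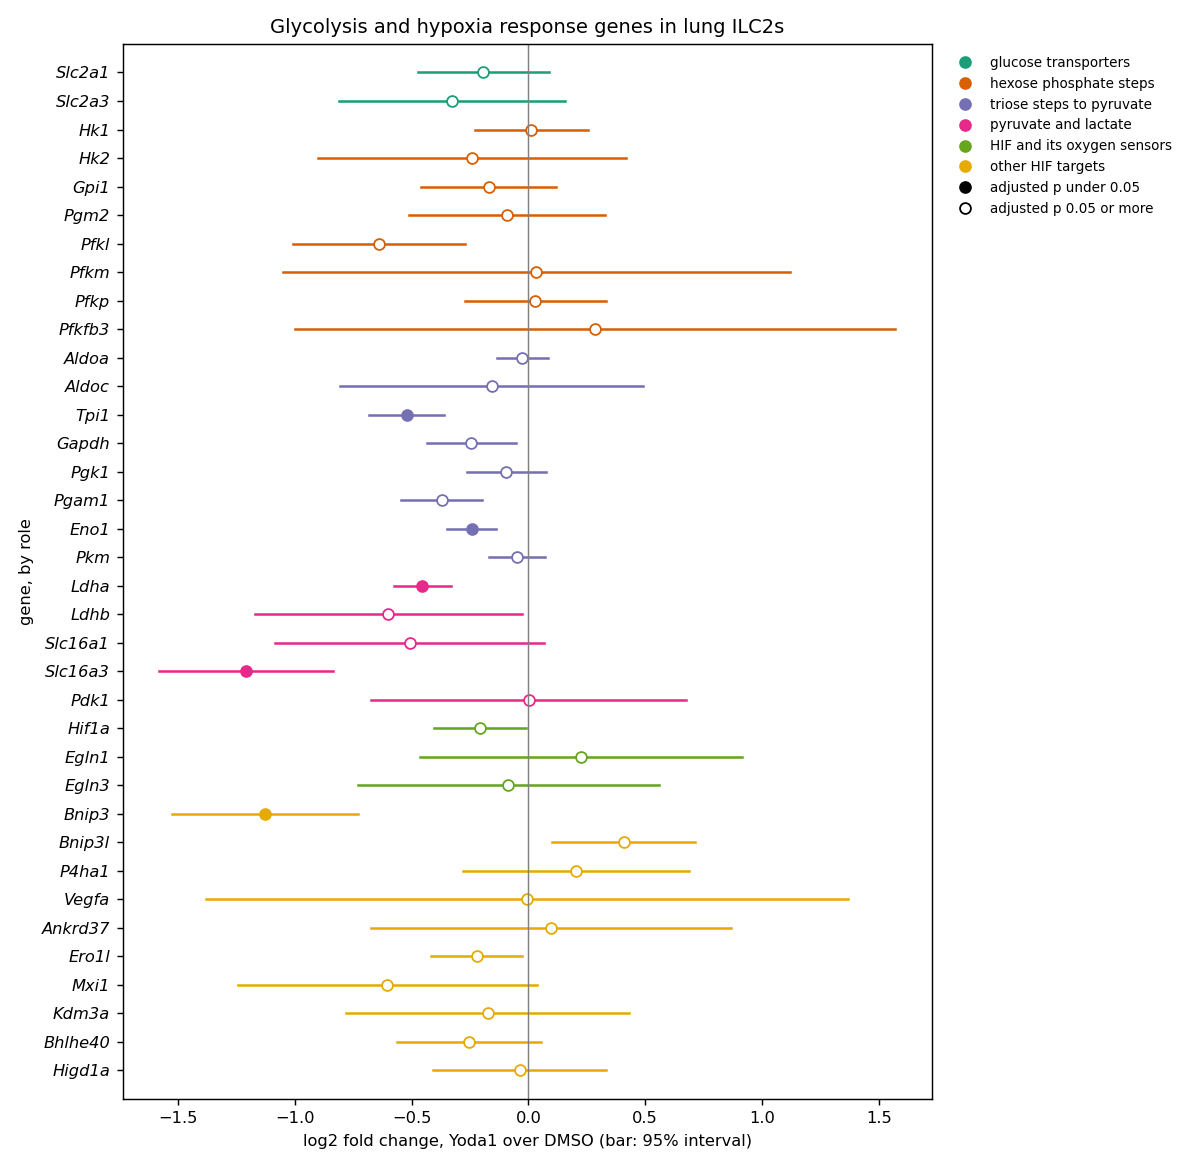
Log2 fold change of Yoda1 over DMSO (horizontal axis) for each of the 36 genes, grouped by role down the page, with 95% intervals as bars and filled points for an adjusted p under 0.05. Filled points lie at -0.52 for Tpi1, -0.24 for Eno1, -0.45 for Ldha, -1.21 for Slc16a3 and -1.13 for Bnip3, and the intervals of Aldoa, Pgk1 and Pkm are narrow and cross 0.

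Total counts ran from 14214048 to 31627519 per library, so a count of 0 allows at most 0.211 CPM, counts set relative to the library total, in the shallowest, taken as 3 counts and for counting error only. The ILC2 factor Gata3 and the IL-33 receptor gene Il1rl1 were high in all 6 libraries. The 14 ILC2 markers summed to 10783 to 12009 CPM in Yoda1 and 9905 to 10553 CPM in DMSO libraries. Il5 made up most of that sum, at 6960, 6932 and 8429 CPM in Yoda1 libraries, against 5308, 5924 and 5932 CPM in DMSO libraries. The sum therefore mainly follows Il5. Among the 14 markers, 5 were lower and 4 higher without overlap between groups. Of these markers, Icos and Il2ra fell and none rose by edgeR, while 4 were higher at p under 0.05 before adjustment, 3 by DESeq2 and 2 by voom. Thy1, a surface marker of lymphocytes, lay at 0.115 to 1.23 CPM in Yoda1 and 1.49 to 2.87 CPM in DMSO libraries. Lung epithelial markers summed to 55.2 to 77.7 CPM in Yoda1 libraries, against 91.0 CPM in DMSO 1, 422 CPM in DMSO 2 and 407 CPM in DMSO 3. In Yoda1 libraries and in DMSO 1, Epcam made up most of the sum. Epcam had 57.8, 48.8 and 71.6 CPM in Yoda1 libraries, against 67.4, 64.5 and 65.9 CPM in DMSO libraries, with overlapping groups. The club cell gene Scgb1a1 made up most of the sum in the other DMSO libraries, at 301 CPM in DMSO 2 and 295 CPM in DMSO 3. Scgb1a1 was at 0 in DMSO 1, Yoda1 4 and Yoda1 5. Sftpd, Krt8 and Cdh1 were at 0 in DMSO 1 and in all Yoda1 libraries. DMSO 1 held other epithelial RNA, with Sftpc at 15.2 CPM and Sftpa1 at 3.75 CPM, against at most 0.289 CPM of Sftpc and 0.923 CPM of Sftpa1 in Yoda1 libraries. Whether libraries of the same group stem from different mice or cultures is not stated, so the p-values rest on library-to-library spread that may be technical. Libraries DMSO 2 and DMSO 3 share a number in their labels, as do Yoda1 4 and Yoda1 5. The label suffix is 0 in DMSO 1 and DMSO 2, 45 in DMSO 3 and 46 to 48 in the Yoda1 libraries. Suffix and treatment thus partly coincide. In bulk RNA, fewer cells of a type and less RNA per cell cannot be told apart.

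HIF binds short DNA words with the core ACGTG or GCGTG, and for that reason stretches before the start of 4 genes are printed here: 3 that fell and Pgk1, a well-known HIF target that did not pass the test. Each run holds the 150 bases before a RefSeq start on GRCm38.p6, read 5′ to 3′ along the gene's own strand. The intervals are chr7:46845654-46845803 (plus strand) for Ldha, chr11:120948917-120949066 (plus strand) for Slc16a3, chr7:138909507-138909656 (minus strand) for Bnip3 and chrX:106186950-106187099 (plus strand) for Pgk1. Capitals mark every match of ACGTG or GCGTG on either strand, so the opposite-strand forms CACGT and CACGC are capital too, and CACGTG is a match on both strands.
Ldha: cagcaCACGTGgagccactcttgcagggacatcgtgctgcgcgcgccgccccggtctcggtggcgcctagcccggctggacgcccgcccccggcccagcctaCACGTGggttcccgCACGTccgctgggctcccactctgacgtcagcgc
Slc16a3: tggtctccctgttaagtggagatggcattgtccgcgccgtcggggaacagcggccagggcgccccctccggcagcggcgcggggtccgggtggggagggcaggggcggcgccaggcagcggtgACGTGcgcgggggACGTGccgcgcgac
Bnip3: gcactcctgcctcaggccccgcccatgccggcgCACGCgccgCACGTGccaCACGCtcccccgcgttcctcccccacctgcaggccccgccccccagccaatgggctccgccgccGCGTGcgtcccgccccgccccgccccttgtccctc
Pgk1: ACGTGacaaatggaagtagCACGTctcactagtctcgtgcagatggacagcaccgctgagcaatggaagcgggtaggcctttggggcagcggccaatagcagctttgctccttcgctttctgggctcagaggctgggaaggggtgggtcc
The Ldha stretch holds 5 matches of ACGTG, those of Slc16a3 and Pgk1 hold 2 each, and that of Bnip3 holds 2 of ACGTG and 3 of GCGTG. The RefSeq starts used for Ldha, Slc16a3 and Bnip3 lie inside the GENCODE spans given with these genes further on. The reference mouse is C57BL/6J, so bases of the BALB/c mice were not read.

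Over the whole RefSeq window, which runs from 250 bases before a start to 50 bases after it, 32 members had a sequence; Slc2a3, Bnip3l, Ero1l and Bhlhe40 had none. ACGTG was present on either strand in 24 of the 32 members (75.0%), against 29.0% of the 10880 genes of the table with a window. GCGTG was present in 21 members (65.6%), against 54.3% of those genes. CACGTG, which contains ACGTG on both strands, was present in 6 members (18.8%), against 11.4% of those genes. Some genes have several windows and count if any of them holds the word. By window, ACGTG was present in 56.0% of the 50 windows of members, against 25.1% of all 13805 windows. The shares were 52.0% against 48.8% for GCGTG and 12.0% against 9.7% for CACGTG. The members' windows had a median GC content of 62.7%, against 60.0% over all windows. Their median number of CG letter pairs was 21, against 19. Among the 5 genes that fell, 3 held ACGTG (Ldha, Slc16a3 and Bnip3), Eno1 held GCGTG alone and Tpi1 held neither. Among the 27 other members with a window, 21 held ACGTG. A match is a description of these letters and not a bound site.

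Glucose enters through facilitative transporters of the Slc2 family, and neither member passed the test. Slc2a1 encodes GLUT1, the widely expressed basal carrier, and had 179, 139 and 146 CPM in Yoda1 libraries 4, 5 and 6, against 178, 181 and 172 CPM in DMSO libraries 1, 2 and 3. Slc2a3 encodes the high-affinity GLUT3 and had 32.01, 28.2 and 22.1 CPM in Yoda1 libraries, against 29.1, 37.1 and 37.0 CPM in DMSO libraries. For both genes the groups overlapped, with log2 fold changes of -0.19 (95% interval -0.47 to 0.09) for Slc2a1 and -0.33 (-0.81 to 0.16) for Slc2a3.

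Of the 8 genes that act on hexose phosphates, none passed edgeR's test at an adjusted p under 0.05. At an unadjusted p under 0.05 there was 1, Pfkl, and DESeq2 also put 1 past the threshold while voom put 0. Pfkl encodes the liver-type subunit of phosphofructokinase, the committed step of glycolysis. It had 261, 183 and 176 CPM in Yoda1 libraries, against 348, 328 and 288 CPM in DMSO libraries. The groups did not overlap, and Yoda1 4 lay nearest to the DMSO libraries. The log2 fold change was -0.64 ± 0.16 (SE), with an edgeR quasi-likelihood adjusted p of 0.102. Without Yoda1 4 the log2 fold change of Pfkl was -0.84 and it passed (edgeR adjusted p = 0.0304, n = 2 against 3). Of the 6 fits with a library left out, only this 1 passed (edgeR adjusted p up to 0.301). The log2 fold change ran from -0.84 to -0.54 over these fits. Of all 18 alternative analyses, Pfkl passed in 4.

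The platelet-type subunit Pfkp was more abundant than Pfkl per kilobase, at a mean of 151 CPM per kb in Yoda1 and 148 CPM per kb in DMSO libraries, while Pfkl had 55.4 CPM per kb in Yoda1 and 86.1 CPM per kb in DMSO libraries. Pfkp itself had 746, 613 and 517 CPM in Yoda1 libraries, against 569.9, 610.5 and 657 CPM in DMSO libraries, with overlapping groups. Its own log2 fold change was 0.03 (95% interval -0.27 to 0.33). The muscle-type subunit Pfkm was low, at 14.2 ± 5.48 CPM in Yoda1 and 13.8 ± 7.83 CPM in DMSO libraries (SD, n = 3 each), and its interval of -1.05 to 1.12 spans large changes in either direction. Hexokinase traps glucose in the cell as its phosphate. Hk1 had 189 ± 14.4 CPM in Yoda1 and 188 ± 9.74 CPM in DMSO libraries, and Hk2, the inducible form, had 45.9 ± 17.7 CPM in Yoda1 and 54.3 ± 9.49 CPM in DMSO libraries (SD, n = 3 each). The log2 fold changes were 0.01 (95% interval -0.23 to 0.25) for Hk1 and -0.24 (-0.90 to 0.42) for Hk2.

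Gpi1, which turns glucose phosphate into fructose phosphate, had 593, 675 and 471 CPM in Yoda1 libraries, against 677, 631 and 649 CPM in DMSO libraries, and the groups overlapped. Pfkfb3 makes and breaks down the sugar bisphosphate that activates phosphofructokinase, and it lay between 2.13 and 7.22 CPM in Yoda1 and between 2.97 and 6.95 CPM in DMSO libraries. Pgm2 lay between 48.5 and 56.5 CPM in Yoda1 and between 44.98 and 67.9 CPM in DMSO libraries. RefSeq gives Pgm1 and Pgm2 as each other's synonyms, so which phosphoglucomutase this symbol stands for in the table is uncertain.

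All 8 genes of the triose steps, from aldolase to pyruvate kinase, had a log2 fold change below 0, a sign that 49.0% of all tested genes also had. Of these 8, 2 fell: Tpi1 and Eno1. Tpi1 (GRCm38 chr6:124810586-124814296) encodes the isomerase that interconverts both triose phosphates. It had 843, 819 and 784 CPM in Yoda1 libraries, against 1125, 1199.7 and 1186 CPM in DMSO libraries. Every Yoda1 library lay below every DMSO library, by more than the spread within either group. The log2 fold change was -0.52 ± 0.07 (SE), with an edgeR quasi-likelihood adjusted p of 0.0125.

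Eno1 (chr4:150236721-150248879) encodes alpha-enolase, which forms phosphoenolpyruvate. It had 4692, 4584 and 4623 CPM in Yoda1 libraries, against 5363, 5601 and 5489 CPM in DMSO libraries. The groups did not overlap although the change was small, at -0.24 ± 0.05 (SE) on the log2 scale (edgeR quasi-likelihood adjusted p = 0.0446). Without a filter on low counts Eno1 no longer passed. The table also lists Eno1b, a near-identical copy with 21.1% to 21.9% of the Eno1 counts in every library, and the counting could have divided reads between both. Eno1b had 989, 988 and 1013 CPM in Yoda1 libraries, against 1142, 1202 and 1181 CPM in DMSO libraries, and a log2 fold change of -0.24 that did not pass (edgeR adjusted p = 0.132). With such copies added to their parent genes, the same 5 members passed.

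Pgam1, the phosphoglycerate mutase, came next to the threshold. It had 582, 604 and 552 CPM in Yoda1 libraries, against 761, 750.3 and 738 CPM in DMSO libraries, so the groups did not overlap. Its log2 fold change was -0.37 ± 0.08 (SE) with an edgeR quasi-likelihood adjusted p of 0.0575, and it passed in DESeq2 and in voom. Gapdh, often used as a reference gene in PCR, had 2421, 2804 and 2271 CPM in Yoda1 libraries, against 3106, 2856 and 2925 CPM in DMSO libraries. The groups did not overlap, though Yoda1 5 lay close to DMSO 2, and the log2 fold change of -0.25 ± 0.08 (SE) did not pass (edgeR adjusted p = 0.217).

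The other abundant enzymes of these steps were measured closely and differed little. Aldoa, the main aldolase, had 4334, 4371 and 4357 CPM in Yoda1 libraries, against 4477, 4299 and 4522 CPM in DMSO libraries, with a log2 fold change of -0.03 (95% interval -0.14 to 0.08). Pkm, pyruvate kinase, had 4127, 4225 and 3962 CPM in Yoda1 libraries, against 4155, 4394 and 4197 CPM in DMSO libraries, with a log2 fold change of -0.05 (-0.17 to 0.07). Pgk1, phosphoglycerate kinase, had 749.7, 709.9 and 714 CPM in Yoda1 libraries, against 762, 801 and 757 CPM in DMSO libraries, with a log2 fold change of -0.09 (-0.26 to 0.07). The groups overlapped for Aldoa and Pkm and were just apart for Pgk1. These intervals leave out a fall as large as the estimate for Tpi1. Aldoc, the minor aldolase here, had 12.7 ± 3.59 CPM in Yoda1 and 14.1 ± 1.17 CPM in DMSO libraries (SD, n = 3 each).

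Summed over the 16 enzymes from hexokinase to lactate dehydrogenase, Yoda1 libraries held 22824, 23273 and 22108 CPM, against 26144, 26425 and 26239.9 CPM in DMSO libraries. Of these 16, 3 fell (18.75%) and none rose by edgeR at an adjusted p under 0.05, where 0.923% of all tested genes fell. Before adjustment (p under 0.05) 7 were lower and 0 higher, where 7.11% of all tested genes were lower and 7.39% higher. DESeq2 put 5 lower and 0 higher, and voom put 4 lower and 0 higher. Per kilobase of the longest coding transcript, the order of mean levels in Yoda1 libraries began with Aldoa at 2811, Eno1 at 2286, Ldha at 1834, Gapdh at 1759.7 and Pkm at 1688 CPM per kb. In DMSO libraries it began with Aldoa at 2862, Eno1 at 2706, Ldha at 2511, Gapdh at 2086 and Pkm at 1747 CPM per kb. Transcript length was taken from GENCODE and not from these reads, so neighbours in this order are ranked only roughly.

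**Figure D2:**
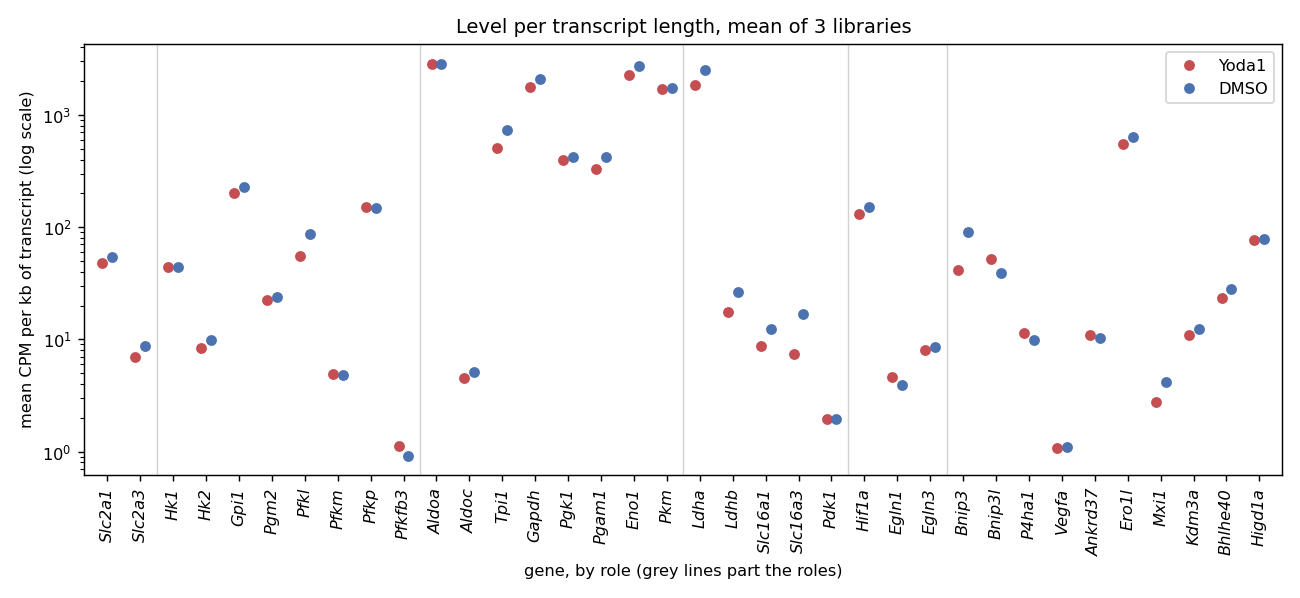
Mean CPM per kilobase of transcript for each gene (log axis), Yoda1 beside DMSO. Aldoa is highest in both groups, at 2811 CPM per kb in Yoda1 and 2862 CPM per kb in DMSO libraries, and Vegfa, Pdk1 and Pfkfb3 lie at the low end.

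The genes of pyruvate and lactate handling had the lowest median log2 fold change of the member groups, -0.51 over 5 genes, of which 2 fell. Ldha (chr7:46841475-46855627), whose upstream sequence is printed above, encodes the lactate dehydrogenase subunit that predominates in glycolytic cells. It had 3170.4, 3399 and 3417 CPM in Yoda1 libraries, against 4511, 4638 and 4523 CPM in DMSO libraries. No Yoda1 library came near the DMSO libraries, and the mean fell by 27.0% relative to DMSO. The log2 fold change of -0.45 ± 0.05 (SE) had the smallest adjusted p of the members (edgeR quasi-likelihood adjusted p = 0.00734).

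Slc16a3 (chr11:120948480-120960868) encodes MCT4, the carrier known for lactate export from glycolytic cells. It had 32.1, 27.9 and 35.4 CPM in Yoda1 libraries, against 78.5, 66.6 and 75.2 CPM in DMSO libraries. The Yoda1 mean fell by 56.7% relative to the DMSO mean, more than for any other member. Its log2 fold change was -1.21 ± 0.16 (SE; edgeR quasi-likelihood adjusted p = 0.0119).

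Slc16a1 encodes MCT1, which carries lactate either way. It had 52.4, 31.97 and 30.9 CPM in Yoda1 libraries, against 47.96, 47.9 and 68.2 CPM in DMSO libraries, and Yoda1 4 lay among the DMSO libraries. Its log2 fold change of -0.51 (95% interval -1.08 to 0.07) did not pass. Bsg, the chaperone that takes both carriers to the cell surface, had a log2 fold change of -0.03 (-0.22 to 0.16).

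Ldhb, the subunit that favours lactate use, had 19.1, 25.4 and 24.3 CPM in Yoda1 libraries, against 26.0, 45.6 and 32.6 CPM in DMSO libraries. The groups were only just apart, and the log2 fold change of -0.60 ± 0.25 (SE) did not pass (edgeR quasi-likelihood adjusted p = 0.32). Per kilobase, Ldha exceeded Ldhb in every library, with group means of 1834 against 17.6 CPM per kb in Yoda1 and 2511 against 26.6 CPM per kb in DMSO libraries. Pdk1, the kinase that holds pyruvate dehydrogenase inactive, lay between 8.71 and 12.4 CPM in Yoda1 and between 8.33 and 12.2 CPM in DMSO libraries. Its interval of -0.67 to 0.67 was wide at this level.

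**Figure D3:**
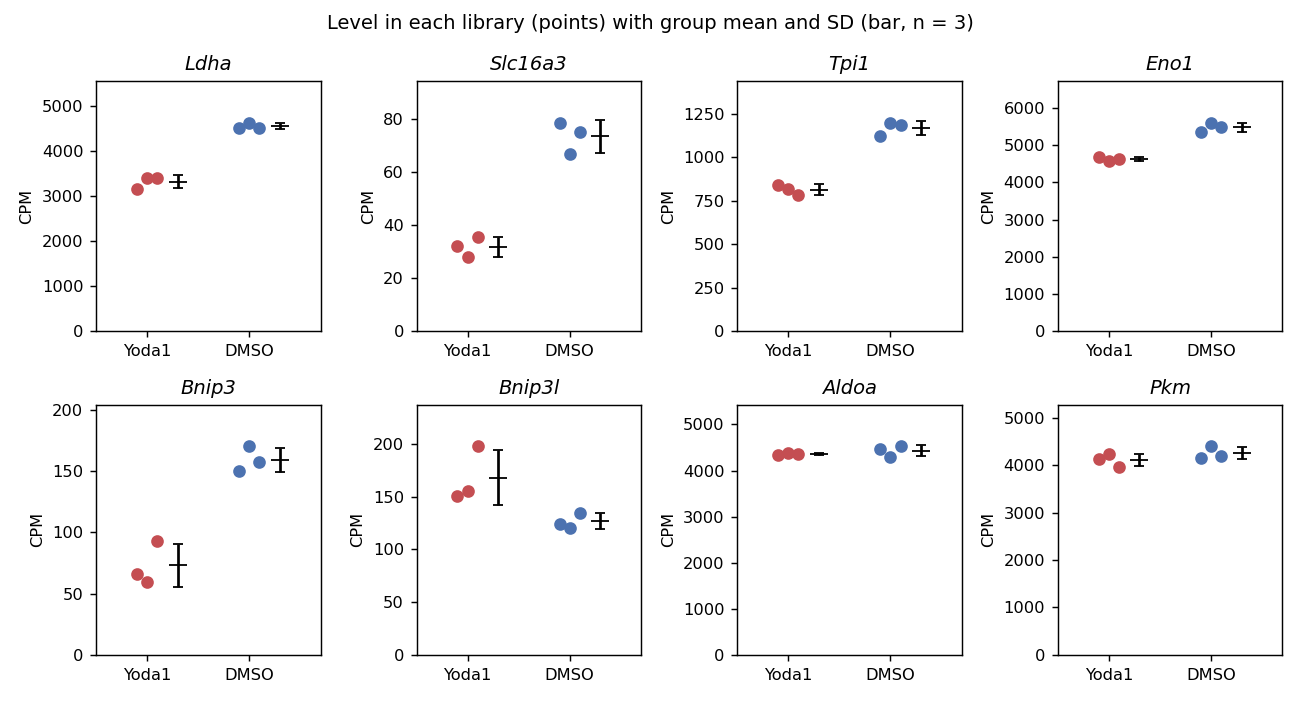
CPM in each library (points) with mean and SD (bars, n = 3) for the genes that fell and for Bnip3l, Aldoa and Pkm, Yoda1 left of DMSO. For Slc16a3 the Yoda1 libraries lie between 27.9 and 35.4 CPM and the DMSO libraries between 66.6 and 78.5 CPM, while for Bnip3l the Yoda1 libraries, at 151 to 198 CPM, lie above the DMSO libraries, at 121 to 135 CPM.

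Hif1a encodes the oxygen-regulated subunit of HIF-1, which is controlled mainly at the protein level, and these data measure its RNA alone. It had 668, 607 and 598 CPM in Yoda1 libraries, against 669.7, 736 and 756 CPM in DMSO libraries. The groups did not overlap, but Yoda1 4 and DMSO 1 were nearly level. The log2 fold change of -0.21 ± 0.09 (SE) did not pass (edgeR quasi-likelihood adjusted p = 0.317). Egln1 and Egln3 encode the prolyl hydroxylases PHD2 and PHD3 that mark HIF alpha subunits, and Egln3 is itself a known HIF target. Egln1 had 21.7, 16.0 and 11.6 CPM in Yoda1 libraries, against 16.2, 15.2 and 10.8 CPM in DMSO libraries. Egln3 had 27.6, 19.4 and 17.0 CPM in Yoda1 libraries, against 28.4, 23.1 and 16.3 CPM in DMSO libraries. For both genes the groups overlapped.

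Among the 10 other HIF targets, 1 fell. Bnip3 (chr7:138890836-138909519) encodes an outer mitochondrial membrane protein that recruits mitochondria to autophagy. It had 66.1, 59.9 and 93.0 CPM in Yoda1 libraries, against 150.4, 170.2 and 157 CPM in DMSO libraries. Yoda1 6 was the highest of the Yoda1 libraries and still below every DMSO library. The log2 fold change was -1.13 ± 0.17 (SE; edgeR quasi-likelihood adjusted p = 0.021), and it was -1.34 without Yoda1 6.

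Bnip3l, its paralog with the same role in mitophagy, had 151, 156 and 198 CPM in Yoda1 libraries, against 125, 121 and 135 CPM in DMSO libraries. It was the only member whose Yoda1 libraries all lay above the DMSO libraries. Its log2 fold change of 0.41 ± 0.13 (SE) did not pass edgeR's quasi-likelihood test (adjusted p = 0.203), and none of the 18 alternative analyses put it past the threshold (adjusted p from 0.0545 to 0.905). A pseudogene of Bnip3l is also listed in the table, at a small share of its counts.

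The remaining 8 targets did not pass. Ero1l, the older symbol of Ero1a, encodes an oxidase that forms disulfides in the endoplasmic reticulum and was the most abundant of them per kilobase, at means of 548 CPM per kb in Yoda1 and 639 CPM per kb in DMSO libraries. It had 2537, 2334 and 2396 CPM in Yoda1 libraries, against 2471, 2922 and 3071 CPM in DMSO libraries. DMSO 1 lay among the Yoda1 libraries, and the log2 fold change of -0.22 ± 0.09 (SE) did not pass (edgeR quasi-likelihood adjusted p = 0.285). Bhlhe40, a transcriptional repressor, had 80.6, 71.8 and 66.1 CPM in Yoda1 libraries, against 81.3, 91.5 and 87.6 CPM in DMSO libraries, just apart. Mxi1, an antagonist of MYC, had 10.2, 15.6 and 15.8 CPM in Yoda1 libraries, against 15.6, 24.5 and 23.1 CPM in DMSO libraries.

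P4ha1, a subunit of the collagen prolyl hydroxylase, had 46.2 ± 12.8 CPM in Yoda1 and 40.2 ± 1.07 CPM in DMSO libraries (SD, n = 3 each). Kdm3a, a histone demethylase, had 52.7 ± 15.9 CPM in Yoda1 and 59.4 ± 14.4 CPM in DMSO libraries, and the mitochondrial protein gene Higd1a had 171 ± 39.1 CPM in Yoda1 and 175 ± 13.0 CPM in DMSO libraries. Vegfa, the angiogenic growth factor, had 2.77, 2.37 and 6.03 CPM in Yoda1 libraries, against 2.15, 2.56 and 6.58 CPM in DMSO libraries. Ankrd37 lay between 6.75 and 14.1 CPM in Yoda1 and between 8.06 and 10.9 CPM in DMSO libraries. All 5 of these genes, Vegfa and Ankrd37 included, had overlapping groups. At a few CPM the interval of the log2 fold change of Vegfa, -1.38 to 1.37, spans large changes in either direction.

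A ratio of paralogs within a library does not depend on the scaling between libraries. Of 8 pairs compared, 3 had ratios that did not overlap between groups, all lower in Yoda1: Bnip3 to Bnip3l, Pfkl to Pfkp and Egln3 to Egln1. Bnip3 to Bnip3l was 0.438, 0.385 and 0.471 in Yoda1 libraries, against 1.21, 1.41 and 1.16 in DMSO libraries, a difference of -1.55 in mean log2 ratio. Pfkl to Pfkp was 0.349, 0.299 and 0.341 in Yoda1 libraries, against 0.611, 0.537 and 0.438 in DMSO libraries, a difference of -0.67. Per kilobase, the group means were 41.6 CPM per kb for Bnip3 and 51.6 for Bnip3l in Yoda1 libraries, and 90.7 CPM per kb for Bnip3 and 38.9 for Bnip3l in DMSO libraries.

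With 3 libraries in each group the exact two-sided permutation test cannot go below 0.1. That smallest p was reached by the 3 pairs, and it is 0.267 after Benjamini-Hochberg adjustment over the 8. Egln3 to Egln1 differed by -0.28 in mean log2 ratio. Slc16a3 to Slc16a1 was 0.612, 0.874 and 1.15 in Yoda1 libraries, against 1.64, 1.39 and 1.10 in DMSO libraries, and the groups overlapped through Yoda1 6 and DMSO 3 (difference -0.68, exact permutation p = 0.2, adjusted 0.4). Ldha to Ldhb differed by 0.12 in mean log2 ratio, with overlapping groups (exact permutation p = 0.8, adjusted 0.8).

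**Figure D4:**
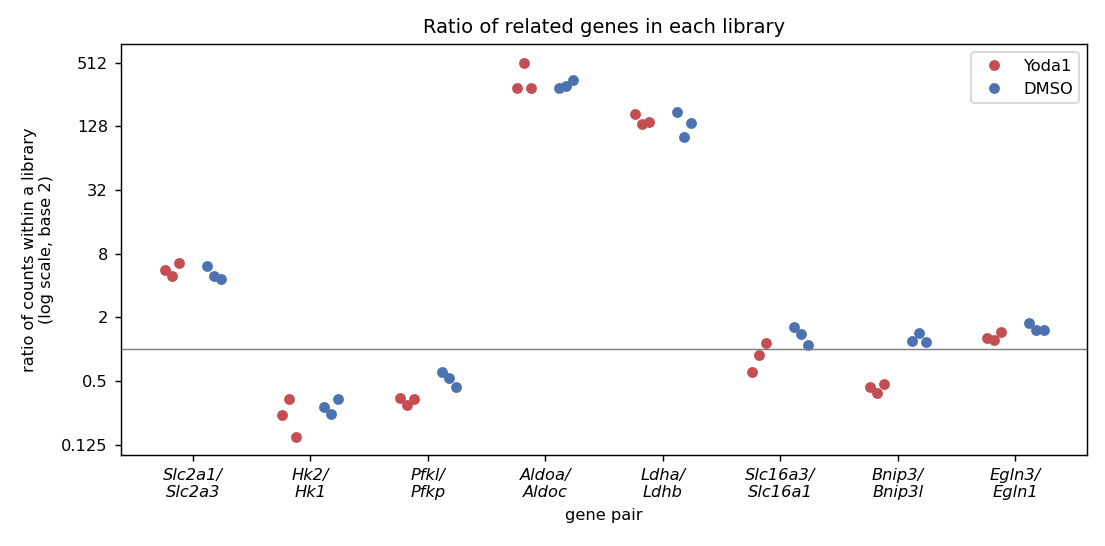
Ratio of the paralogs of each of 8 pairs (vertical axis, log scale) in each library (points), Yoda1 left of DMSO. The points of Bnip3 to Bnip3l lie between 0.385 and 0.471 in Yoda1 libraries and between 1.16 and 1.41 in DMSO libraries, while those of Ldha to Ldhb overlap.

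Other genes of the same pathways were read beside the members. While 0.923% of all tested genes fell, of 23 tested companions in glycolysis (further isozymes, regulators and carriers) 1 fell (4.35%) and none rose. It was Ldhd, a mitochondrial dehydrogenase of D-lactate, with 3.03, 2.94 and 3.34 CPM in Yoda1 libraries, against 12.9, 9.02 and 9.48 CPM in DMSO libraries. Its groups were well apart, with a log2 fold change of -1.75 ± 0.33 (SE; edgeR quasi-likelihood adjusted p = 0.0435). At an unadjusted p under 0.05 the 23 companions gave 1 lower and 0 higher, and voom gave 1 lower and 0 higher. Their median log2 fold change was -0.14. DESeq2, counted over all 28 companions in the deposited table, gave 1 lower and 1 higher.

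Of 17 tested genes of the HIF pathway itself (other subunits, oxygen sensors and degradation), edgeR called 0 in either direction, with 0 at an unadjusted p under 0.05, 0 by DESeq2 and 0 by voom, and a median log2 fold change of -0.01. Of 39 tested further HIF targets, edgeR called 0. Among all tested genes it called 0.923% lower and 0.57% higher, so 0 calls in lists of this size do not set them apart. Before adjustment 3 were lower and 9 higher (p under 0.05), against 7.11% lower and 7.39% higher among all tested genes. Voom put 1 lower and 0 higher, and the median log2 fold change was 0.09. DESeq2, counted over all 41 further targets in the deposited table, put 2 lower and 3 higher. Groups did not overlap for 4 of these 39 targets on the lower side (10.3%) and 10 on the higher side. Among all tested genes the shares were 12.0% on the lower side and 10.6% on the higher side.

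In the branches that leave glycolysis, edgeR called 0 of 7 tested genes of the pentose phosphate pathway (before adjustment 0 lower and 1 higher at p under 0.05, then 0 by DESeq2 and 0 by voom). It called 0 of 11 tested glycogen genes (0 at an unadjusted p under 0.05, 0 by DESeq2 and 0 by voom). With 0.923% of all tested genes called lower and 0.57% higher, 0 calls in lists this short do not set them apart. G6pdx, the entry enzyme of the pentose phosphate pathway, had 866, 833 and 745 CPM in Yoda1 libraries, against 690.4, 696 and 653 CPM in DMSO libraries. All Yoda1 libraries lay above the DMSO libraries, and the log2 fold change of 0.26 ± 0.08 (SE) did not pass (edgeR quasi-likelihood adjusted p = 0.194). Myc, a known activator of glycolytic genes, had a log2 fold change of -0.24 (95% interval -0.61 to 0.13).

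Genes of the cell cycle were also lower. Of 16 cell cycle genes, 9 fell (56.25%) and none rose by edgeR, where 0.923% of all tested genes fell. On the higher side there were 0 at an unadjusted p under 0.05, 0 by DESeq2 and 0 by voom. The median log2 fold change of the 16 genes was -0.76. They summed to 3406 to 3741 CPM in Yoda1 and 5477 to 5653 CPM in DMSO libraries. Of 3 tested markers of NK cells and ILC1s 2 fell, Gzma and Gzmb, and the 5 in the table summed to 43.9 to 63.3 CPM in Yoda1 and 154 to 210.4 CPM in DMSO libraries. Gzma and Gzmb made up nearly all of that sum, while Prf1 had 1.81, 3.29 and 1.91 CPM in Yoda1 libraries, against 0.386, 3.19 and 1.63 CPM in DMSO libraries, and Eomes and Tbx21 lay under 1 CPM in all 6. Of the T cell markers, Cd3e and Cd3g were lower without overlap and did not pass, and the 4 in the table summed to 26.8 to 32.05 CPM in Yoda1 and 39.4 to 41.8 CPM in DMSO libraries. The macrophage gene Lyz2 and the red blood cell genes Hba-a1 and Hba-a2 were higher without overlap and did not pass. Lyz2 had 6.32, 9.93 and 11.2 CPM in Yoda1 libraries, against 4.91, 1.29 and 1.77 CPM in DMSO libraries. Other macrophage genes did not follow Lyz2. Cd68 overlapped, and Csf1r, Fcgr1 and C1qb lay under 1 CPM in all 6 libraries. Adgre1 was at 0 in Yoda1 libraries, against 0.0552, 1.67 and 1.27 CPM in DMSO libraries. The red blood cell genes Hba-a1 and Hba-a2 together had 9.94, 16.1 and 19.5 CPM in Yoda1 libraries, against 8.66, 6.37 and 6.37 CPM in DMSO libraries. The part of any of these, or of the epithelial RNA, in the changes of Ldha, Slc16a3, Tpi1, Eno1 and Bnip3 was not tested.

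The calls depended on single libraries. Leaving out DMSO 2 or DMSO 3 left 0 of the 5 past the threshold, leaving out DMSO 1 or Yoda1 5 left 1 (Ldha), leaving out Yoda1 4 left 4 (without Bnip3), and leaving out Yoda1 6 left 5, while the count over all genes moved as well. With the label suffix as a term, or with libraries of a shared label number summed, none of the 5 passed. Because DMSO 3 is the only DMSO library with a suffix other than 0, the suffix term cannot fully separate suffix from treatment. In all 18 alternatives, among them DMSO 1 as the only control, all 5 kept a log2 fold change below 0. For all 5 every Yoda1 library already lay below every DMSO library, so leaving out or summing libraries could hardly change this sign.

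**Figure D5:**
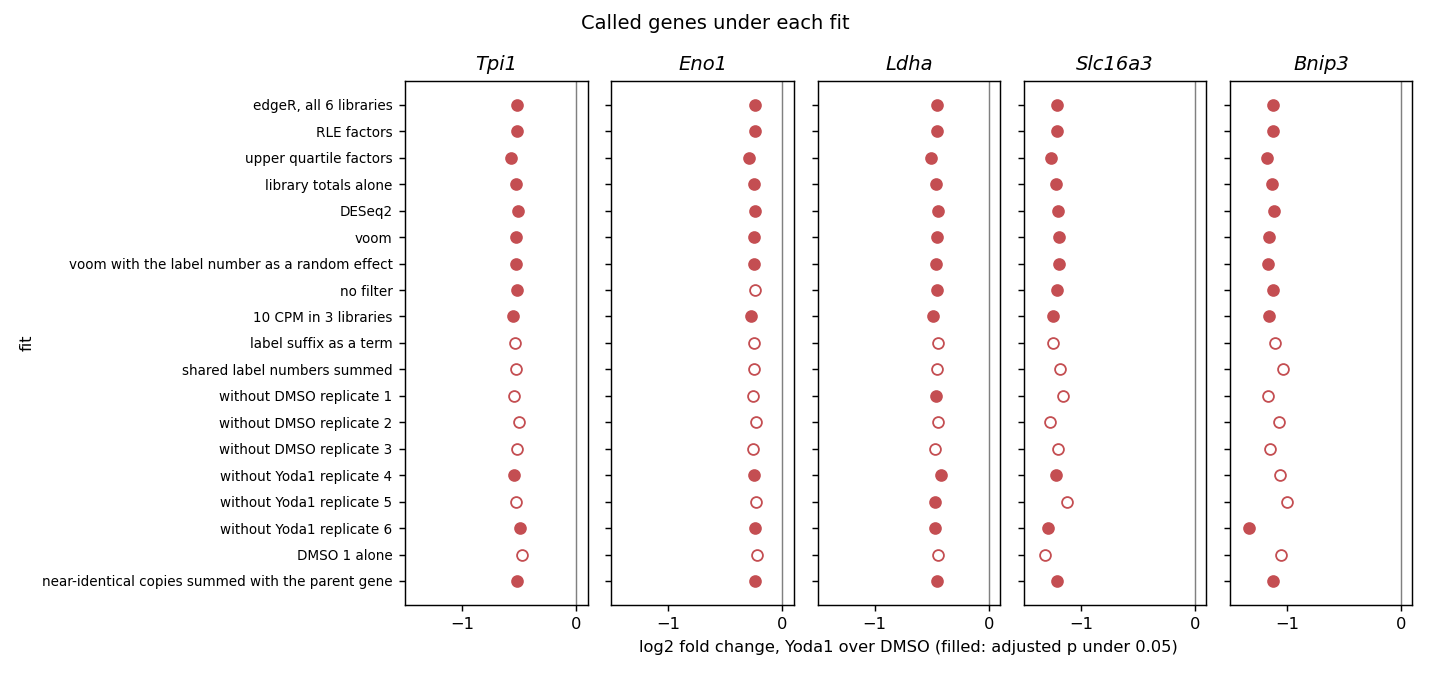
Log2 fold change of Yoda1 over DMSO for the 5 genes that fell, under edgeR with all 6 libraries and 18 alternative analyses (rows), filled where the adjusted p was under 0.05. All points lie left of 0: between -0.51 and -0.42 for Ldha, -1.31 and -1.12 for Slc16a3, -0.57 and -0.47 for Tpi1, -0.30 and -0.22 for Eno1, and -1.34 and -1.0 for Bnip3.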

How the data were processed

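The authors deposited 1 table of expected counts, that is, read numbers estimated for each gene, which may be fractional; from 57.1% to 66.5% of a library's values were whole within 0.001. Per the submitters' processing notes the build was mm10; aligner, counter, strand setting and annotation: not given in the sources used here. Per the labels' protocols, 10 ng of RNA was used for each library. Groups follow the sample labels. Pairs of libraries within a group differed by more than sampling noise (chi-square per degree of freedom of 19.27 or more).

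Counts were rounded and tested in edgeR 4.0.16 (R 4.3.3): TMM factors, genes kept by filterByExpr with at least 10 counts and a total of 15, glmQLFit then glmQLFTest with no covariate, Benjamini-Hochberg adjustment over 13325 genes. The common biological coefficient of variation was 0.355. CPM uses TMM-scaled totals of tested genes. The standard error is the log2 fold change divided by the square root of F. The script was tested on simulated data with less spread between libraries than the common coefficient above, which checks the code and not its power here. Paralog ratios were compared by an exact permutation test. Positions and transcript lengths are from GENCODE M21 (GRCm38), sequences from RefSeq (GRCm38.p6). Alternatives were RLE, upper quartile and no factors, DESeq2 1.42.0, limma 3.58.1 voom (also with a random effect of the number shared in labels), 2 filters, the label suffix as a term, shared label numbers summed, DMSO 1 alone and each library left out. Summing near-identical copies was chosen after seeing the data. Genes were named for membership in the list whatever their result, plus Bsg, Myc and pathway companions past the threshold; G6pdx and the cell markers were named after their values were seen. The members and lists were chosen with earlier results of these data known.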

Additional observations from a re-analysis of the deposited data

How the results depend on the processing

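No paired analysis was possible because the libraries are numbered 1 to 3 for DMSO and 4 to 6 for Yoda1, so the groups share no replicate number. Over 644 combinations of a member and an alternative, 546 kept both direction and side of the threshold. Another 35 kept the direction and lost the call, 9 gained one and 54 changed sign. Only a gene with a call can lose it, so all 35 losses belong to the 5 genes that fell. Of the 18 alternatives, Ldha passed in 13, Slc16a3 and Tpi1 in 11 each, and Eno1 and Bnip3 in 10 each. The members that fell numbered 5 of 36 with RLE factors, with library totals alone or with copies summed. They numbered 6 (adding Pgam1) with upper quartile factors, where 1.31% of all genes fell, and with voom, where 1.34% fell. They numbered 7 (adding Pfkl and Pgam1) with DESeq2, where 3.53% of all genes fell. The same 7 fell with voom and a random effect of the number shared in labels, where 1.6% of all genes fell. A filter of 10 CPM in 3 libraries left 32 members, of which the same 7 fell, where 3.4% of all genes fell. Without a filter 4 passed. The count was 0 with the label suffix as a term, 0 with shared label numbers summed, 0 with DMSO 1 alone, and 0 to 5 with a replicate left out. Over all genes 123 fell in the edgeR analysis, 498 with DESeq2, 1 with the label suffix and 0 with shared numbers summed. The members' median log2 fold change ran from -0.24 to -0.10 with a replicate left out. Upper quartile factors moved the median of all genes to -0.04.

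The cause of the sign changes was not tested. With 10 CPM in 3 libraries Pfkp was at -0.0055, Pfkm at -0.0034 and Hk1 at -0.022. With upper quartile factors Pdk1 was at -0.0535, Pfkp at -0.0243, Pfkm at -0.0248 and Hk1 at -0.041, and with library totals alone Pdk1 was at -0.0044. With voom Vegfa was at 0.17 and Pdk1 at -0.0458, and with the random effect Vegfa was at 0.13, Pdk1 at -0.0471 and Ankrd37 at -0.0007. With the label suffix Higd1a was at 0.0891, Egln3 at 0.38, Pfkp at -0.0712 and Hk1 at -0.0178. With shared numbers summed Pfkm was at -0.15, Pfkp at -0.0095, Pdk1 at -0.014, Vegfa at 0.50, Kdm3a at 0.001 and Higd1a at 0.0167. With DMSO 1 alone Kdm3a was at 0.29, Pfkfb3 at -0.38, Pfkm at -0.63, Pgm2 at 0.23 and Vegfa at 0.78. With a replicate left out the ranges were -0.29 to 0.0637 for Aldoc, -0.21 to 0.32 for Ankrd37, -0.0266 to 0.42 for Egln1, -0.32 to 0.11 for Egln3, -0.24 to 0.0622 for Higd1a, -0.0522 to 0.0501 for Hk1, -0.51 to 0.0338 for Hk2, -0.40 to 0.0391 for Kdm3a, -0.0435 to 0.35 for P4ha1, -0.17 to 0.16 for Pdk1, -0.33 to 0.52 for Pfkm, -0.12 to 0.15 for Pfkp, -0.23 to 0.0641 for Pgm2 and -0.54 to 0.65 for Vegfa. The log2 ratio difference ran from -0.095 to 0.31 for Aldoa to Aldoc and from -0.0869 to 0.30 for Ldha to Ldhb.

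Vegfa, Pfkfb3, Pdk1, Ankrd37, Aldoc and Pfkm have means under 15 CPM and wide intervals; whether depth sets these widths was not tested.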
